A study of Mus musculus with 13 samples.

Results

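Hox genes encode homeobox transcription factors that stand side by side in 4 clusters of the mouse genome, named a to d. The members described here were all genes whose array symbol is Hox followed by a cluster letter and a paralogue number, with no filter on their level. They came to 33 of the 18193 genes with a probe set of their own, namely 9 of cluster a on chromosome 6, 9 of cluster b on chromosome 11, 7 of cluster c on chromosome 15 and 8 of cluster d on chromosome 2. Other genes of these clusters were not analysed here as genes of their own. RNA came from SM1 tumours, a transplanted mouse melanoma with mutant BRAF, grown in C57BL/6 mice that all received splenocytes by adoptive transfer, and was read on 13 Affymetrix Mouse 430 V2 arrays. Recipients of pmel-1 splenocytes, transgenic for a T cell receptor that recognises gp100, a protein of melanocytes, were given dabrafenib and trametinib together (3 arrays), dabrafenib alone (2 arrays), trametinib alone (2 arrays) or vehicle (2 arrays). Recipients of C57BL/6 splenocytes, called control recipients, were given both drugs (2 arrays) or vehicle (2 arrays). Dabrafenib inhibits BRAF and trametinib inhibits MEK, which BRAF activates, and the series asks how these drugs combine with transferred T cells. The labels used here give no doses, times or ages and do not say whether tumours were pooled.

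Hox genes are known for laying out the body along its head-to-tail axis in the embryo. Genes of low paralogue number lie at the 3′ end of a cluster and act in the hindbrain and neck, and genes of high number lie at the 5′ end and act in the trunk, limbs and tail. Cells of adult tissues, melanocytes and melanoma cells among them, often keep a Hox pattern, which is held by Polycomb proteins (repressing) and Trithorax proteins (activating), and Hox proteins bind DNA together with TALE cofactors of the Pbx and Meis families.

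The sequences just before the start sites of 5 Hoxa genes are printed because the genes of this cluster moved most with the drugs and by very different amounts. Shown are the 3 Hoxa genes with the largest fall and the 2 with the smallest among the called Hoxa genes that read over 5.79 on all arrays and have an entry in the RefSeq promoter table. Each run is the 250 bases before the listed start, 5′ to 3′ on the minus strand of GRCm38.p6. The regions are chr6:52245811-52246060 for Hoxa11, chr6:52213068-52213317 for Hoxa3, chr6:52164832-52165081 for Hoxa2, chr6:52204588-52204837 for Hoxa5 and chr6:52218574-52218823 for Hoxa7. Capitals mark matches, on either strand, to any of the motifs spelled out after the sequences.
Hoxa11: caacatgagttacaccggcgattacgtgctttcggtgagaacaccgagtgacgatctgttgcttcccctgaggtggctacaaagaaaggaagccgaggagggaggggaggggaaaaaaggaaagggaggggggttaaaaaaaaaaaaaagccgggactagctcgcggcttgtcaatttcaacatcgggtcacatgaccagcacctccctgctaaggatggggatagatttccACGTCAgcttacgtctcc
Hoxa3: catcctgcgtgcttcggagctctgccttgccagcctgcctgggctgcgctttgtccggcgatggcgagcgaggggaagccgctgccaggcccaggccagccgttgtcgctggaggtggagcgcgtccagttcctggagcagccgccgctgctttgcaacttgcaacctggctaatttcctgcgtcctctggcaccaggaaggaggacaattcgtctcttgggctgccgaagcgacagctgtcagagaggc
Hoxa2: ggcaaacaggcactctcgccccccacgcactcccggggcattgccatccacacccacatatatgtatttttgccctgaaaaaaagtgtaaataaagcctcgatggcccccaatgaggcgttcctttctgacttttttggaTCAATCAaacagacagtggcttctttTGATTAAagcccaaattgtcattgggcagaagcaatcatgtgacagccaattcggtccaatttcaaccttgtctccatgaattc
Hoxa5: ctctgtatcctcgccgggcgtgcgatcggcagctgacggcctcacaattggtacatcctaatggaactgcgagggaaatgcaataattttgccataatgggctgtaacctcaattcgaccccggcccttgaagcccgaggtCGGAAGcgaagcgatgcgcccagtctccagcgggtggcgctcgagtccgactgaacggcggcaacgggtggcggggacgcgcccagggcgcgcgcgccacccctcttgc
Hoxa7: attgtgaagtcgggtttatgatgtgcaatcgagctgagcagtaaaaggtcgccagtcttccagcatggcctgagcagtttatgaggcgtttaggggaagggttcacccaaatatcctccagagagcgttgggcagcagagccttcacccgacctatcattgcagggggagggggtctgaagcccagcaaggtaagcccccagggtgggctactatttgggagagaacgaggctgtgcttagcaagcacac

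The motifs searched on both strands were CGGAAG (a core of ETS factor sites), TGANTCA (AP-1), TGACGT (a core of CRE sites), CACGTG (the E-box), TGATTNA (a Hox-Pbx site) and TATAAA (the TATA box). Of the 32851 mouse promoters in the table, cut to the same 250 bases, 13.6% held CGGAAG, 6.75% TGANTCA, 6.47% TGACGT, 6.02% CACGTG, 9.11% TGATTNA and 12.4% TATAAA. The Hoxa11 run held 1 match to TGACGT, the Hoxa2 run 2 to TGATTNA and the Hoxa5 run 1 to CGGAAG, and no match overlapped another. In the Hoxa3 and Hoxa7 runs these letters do not occur. The Hoxa3 window lies between those of Hoxa5 and Hoxa7, so the start listed for Hoxa3 is not the one next to Hoxa2. Over all 24 listed promoters of 22 Hox genes, 2 held CGGAAG, 1 TGANTCA, 2 TGACGT, 4 CACGTG, 4 TGATTNA and 4 TATAAA, and the median GC content was 58.6%, against 52.4% over all promoters. These matches describe letters and say nothing of what binds there.

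Values are log2 intensities as deposited, on which 1 unit is a doubling, and differences are log2 changes ± SE from limma fitted on all 13 arrays and all 18193 genes. A gene is said to rise or fall where its adjusted p (Benjamini-Hochberg over all genes) is under 0.05. The level 5.79, the 40th percentile of all values, marks readings not well above background. The labels do not say that arrays of a group came from separate mice, so the p-values reflect only how these samples vary, which may be technical, and the number of arrays limits the precision. Whole tumours were measured, so fewer cells of a type and less RNA per cell cannot be told apart.

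The labelled melanoma was checked on melanocyte markers, of which Dct, an enzyme of pigment synthesis, read 14.79 to 14.93 on the 9 drug arrays and 14.32 to 14.47 on the 4 vehicle arrays. The log2 of the summed level of the 7 melanocyte markers was 16.41 to 16.56 in pmel-1 combination, 16.52 to 16.54 in dabrafenib, 16.45 to 16.50 in trametinib and 15.93 to 15.95 in pmel-1 vehicle tumours, and 16.53 to 16.55 in control combination against 15.84 to 15.87 in control vehicle tumours. Tyrp1, another such enzyme, was under 5.79 in the control combination group and in both vehicle groups. That of the 8 leukocyte markers was 11.87 to 12.06 in pmel-1 combination, 11.77 to 12.48 in dabrafenib, 10.79 to 11.18 in trametinib and 10.44 to 10.46 in pmel-1 vehicle tumours, and 10.78 to 11.11 in control combination against 10.01 to 10.24 in control vehicle tumours. With the combination over both kinds of recipient, 6 of 7 melanocyte, 5 of 8 fibroblast, 4 of 8 leukocyte and 2 of 4 endothelial markers rose and none of these fell. Over all genes 21.5% rose and 18.8% fell there. Of the 8 fibroblast markers, 1 rose in pmel-1 recipients and 2 in control recipients taken alone. The log2 sum of the 8 fibroblast markers was 13.19 to 13.93 in pmel-1 combination, 12.95 to 14.18 in dabrafenib, 13.10 to 13.58 in trametinib and 12.86 to 13.19 in pmel-1 vehicle tumours, and 14.31 to 14.74 in control combination against 12.86 to 13.95 in control vehicle tumours. The log2 sum of 2 Schwann cell markers was 12.56 to 12.87 on the 9 drug arrays and 10.51 to 11.37 on the 4 vehicle arrays. Of the remaining lists 1 of 2 Schwann cell markers rose over both kinds of recipient. There 0 of 3 adipocyte, 0 of 4 muscle and 0 of 4 keratinocyte markers passed in limma. The adipocyte log2 sum spread widely within some groups, at 8.43 to 12.14 in pmel-1 combination and 8.70 to 10.85 in control vehicle tumours. It was 10.34 to 10.49 in pmel-1 vehicle and 8.03 to 8.56 in control combination tumours. The muscle sum was 7.81 to 10.20 in control vehicle and 7.74 to 7.85 in control combination tumours. These misses do not show equal fat or muscle content. The part of these shifts and this spread in the Hox values was not tested. The 3′/5′ log2 ratio averaged over the Gapdh and actin control probe sets, a sign of RNA quality, also stood apart in the pmel-1 recipients. It was 0.86 to 1.31 on pmel-1 combination, 0.60 and 1.65 on dabrafenib and 0.68 and 1.22 on trametinib arrays, against 0.18 and 0.22 on pmel-1 vehicle arrays, so results with and without the 4 arrays over 1 are given. In control recipients it was 0.19 and 0.42 on combination arrays and 0.25 and 0.28 on vehicle arrays.

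The Hox genes split into those that read over 5.79 on all 13 arrays (18 genes), on some arrays (6) and on none (9). Cluster a gave 7 genes over that level throughout (Hoxa2, Hoxa3, Hoxa5, Hoxa7, Hoxa9, Hoxa10 and Hoxa11), and Hoxa4 passed it on 10 arrays. Cluster b gave Hoxb2, Hoxb3, Hoxb4, Hoxb5, Hoxb6 and Hoxb9, cluster c gave Hoxc4, Hoxc6 and Hoxc9, and cluster d gave Hoxd8 and Hoxd9. The genes at the far 5′ end, Hoxa13, Hoxb13 and Hoxc13, which act in the tail, genital and hair regions, passed it on no array, nor did Hoxb1, Hoxb7, Hoxd1, Hoxd10, Hoxd11 and Hoxd12. Hoxc5, Hoxc8, Hoxc10, Hoxd3 and Hoxd13 passed it on some arrays. The heat map of all 33 genes shows the fall in the first 8 genes of cluster a and in a few genes of the other clusters.

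**Figure D1:**
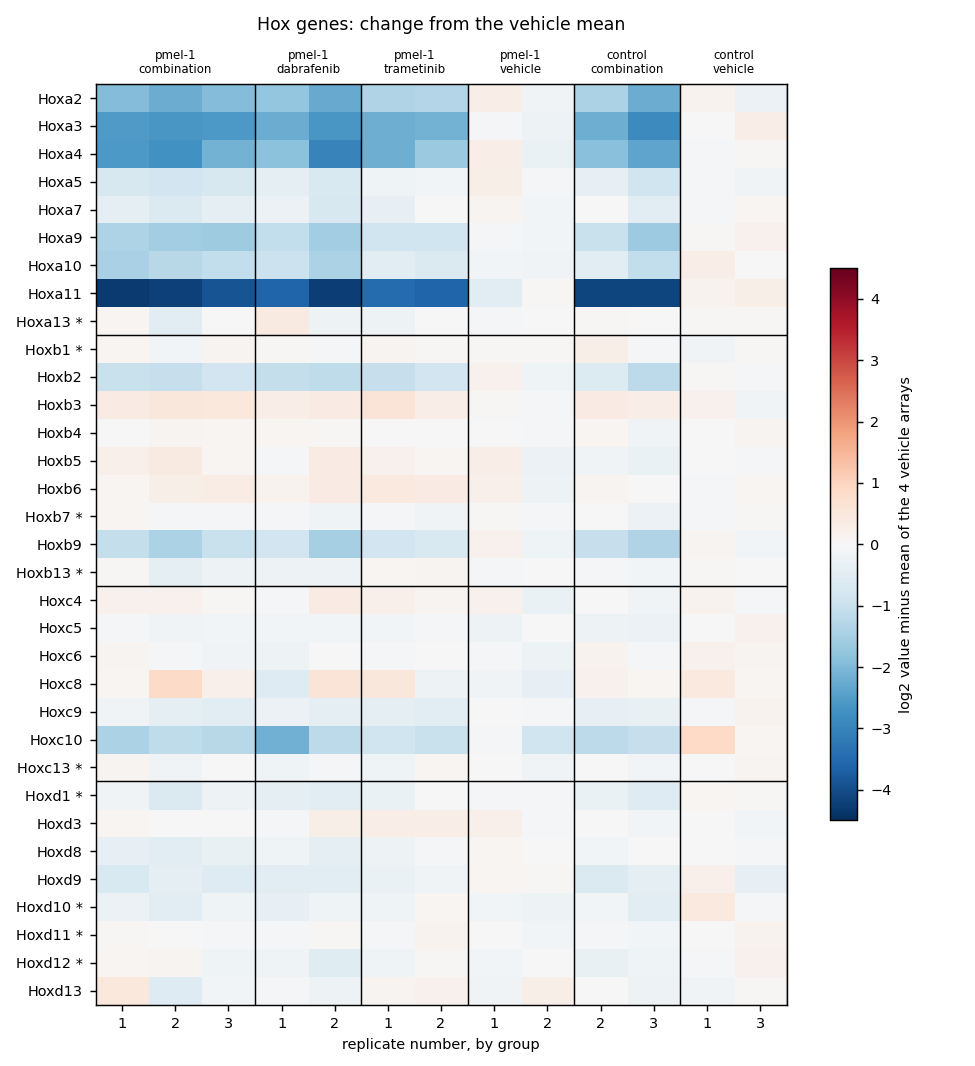
Each of the 33 Hox genes (rows, by cluster and paralogue number) on each of the 13 arrays (columns, by group), coloured by log2 intensity minus the mean of the 4 vehicle arrays; an asterisk marks the 9 genes under 5.79 on every array. Blue fills the rows Hoxa2 to Hoxa4 and Hoxa9 to Hoxa11 in all 9 drug arrays, while most rows of clusters b to d stay near white.

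The first comparison asks what both drugs did to the Hox genes whichever cells were transferred, and sets the 5 combination arrays against the 4 vehicle arrays with equal weight for pmel-1 and control recipients. With the combination 15 of 33 Hox genes fell and 1 rose, where over all genes 18.8% fell and 21.5% rose (40.3% either way). At least 2-fold falls were found for 8 Hox genes, against 3.18% of all genes. The median change was -0.18 over the 33 Hox genes and -0.01 over all genes. Hoxa11, which shapes the forearm, kidney and uterus, fell furthest, with a log2 change of -4.14 ± 0.15. Hoxa3, Hoxa4 and Hoxa2, which act in the neck, throat and hindbrain, fell with log2 changes of -2.56 ± 0.13, -2.31 ± 0.23 and -1.94 ± 0.18, in that order. The only gene to rise was Hoxb3, a paralogue of Hoxa3, by 0.39 ± 0.09.

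Among the anterior genes (paralogues 1 to 3), 4 of 7 fell (57.1%, where 18.8% of all genes fell) and 1 rose, with a median change of -0.38. Hoxa2, which patterns the second pharyngeal arch, read 6.82, 6.51 and 6.79 on the pmel-1 combination arrays, 7.03 and 6.48 on dabrafenib, 7.41 and 7.43 on trametinib and 9.05 and 8.59 on pmel-1 vehicle arrays. In control recipients it read 7.33 and 6.51 with the combination and 8.91 and 8.48 with vehicle. Every drug array lay below every vehicle array, and the combination lowered Hoxa2 (-1.94 ± 0.18, limma, adjusted p = 5.31e-06), 3.8-fold. Hoxa3, needed for the thymus and parathyroid, read 7.22, 7.13 and 7.18 on the pmel-1 combination arrays, 7.53 and 7.14 on dabrafenib, 7.57 and 7.64 on trametinib and 9.69 and 9.53 on pmel-1 vehicle arrays. In control recipients the combination arrays of Hoxa3 read 7.57 and 6.90 and the vehicle arrays 9.77 and 10.06. Again no drug array reached a vehicle array, and the fall was 5.9-fold (-2.56 ± 0.13, limma, adjusted p = 9.60e-08). The size of this fall depends on the probe set, since 3 other probe sets of Hoxa3 differed by -0.92, -0.67 and -0.09, and their mean with the first gave -1.06.

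Hoxb2, which acts in the hindbrain and facial motor neurons, read 7.81, 7.77 and 7.95 on the pmel-1 combination arrays, 7.73 and 7.65 on dabrafenib, 7.78 and 7.94 on trametinib and 9.0 and 8.60 on pmel-1 vehicle arrays. Hoxb2 in control recipients read 8.17 and 7.63 with the combination and 8.85 and 8.76 with vehicle. All 9 drug arrays were lower than all 4 vehicle arrays, and the combination lowered Hoxb2 (-0.93 ± 0.12, limma, adjusted p = 5.15e-05), 1.9-fold. Hoxb3, its neighbour in cluster b, read 8.57, 8.69 and 8.67 on the pmel-1 combination arrays, 8.48 and 8.55 on dabrafenib, 8.78 and 8.51 on trametinib and 8.26 and 8.10 on pmel-1 vehicle arrays. Its values in control recipients were 8.58 and 8.48 with the combination and 8.39 and 8.04 with vehicle. Here all 9 drug arrays lay above all 4 vehicle arrays, by a small margin (0.39 ± 0.09, limma, adjusted p = 0.0049), while the second probe set of Hoxb3 differed by 0.08, the mean of both gave 0.23, and the call was lost with the 3′/5′ ratio included as covariate (0.34, limma, adjusted p = 0.0516). Across all genes 13.3% had every drug array below every vehicle array and 14.4% had every drug array above. Among the Hox genes there were 9 of the first kind (Hoxa2, Hoxa3, Hoxa4, Hoxa9, Hoxa10, Hoxa11, Hoxb2, Hoxb9 and Hoxc9) and 1 of the second (Hoxb3). Hoxd1 passed the test (-0.38 ± 0.11, limma, adjusted p = 0.0157) but read under 5.79 on every array, at 3.24 to 3.85 with a drug and 3.80 to 3.95 with vehicle, so it has no fold. The call of Hoxd1 was lost without control combination replicate 3 (-0.31, limma, adjusted p = 0.0798).

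**Figure D2:**
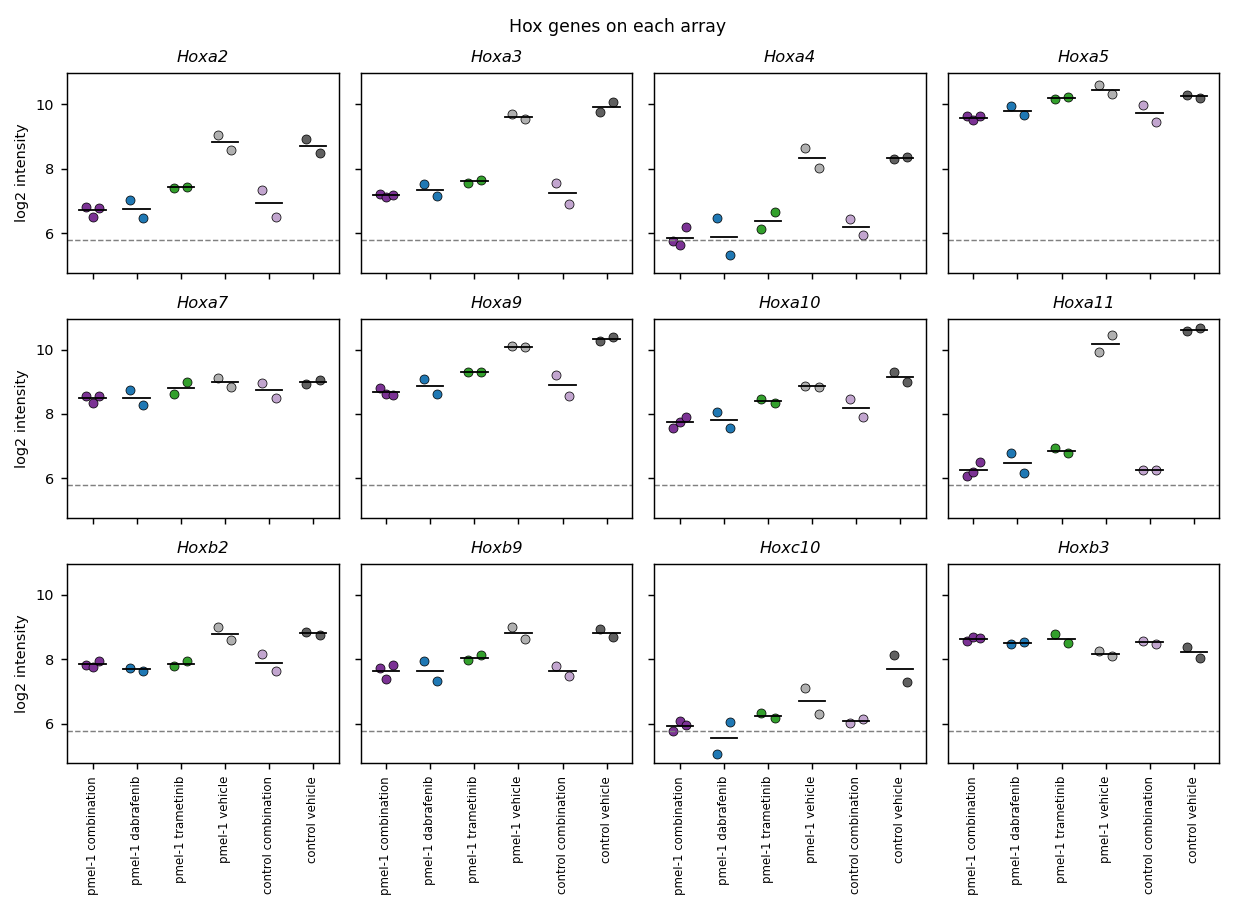
Log2 intensity of 12 Hox genes on each array (points) with the group mean (bars) in the 6 groups; the dashed line is 5.79. In Hoxa11 the drug arrays lie at 6.08 to 6.93 and the vehicle arrays at 9.92 to 10.68, while Hoxa5, Hoxa7 and Hoxb3 shift little.

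Of the central genes (paralogues 4 to 8), 4 of 12 fell and none rose, and the median change was -0.04. Over all genes 18.8% fell and 40.3% passed either way, against 33.3% of the central genes. Hoxa4, which acts in the neck vertebrae, read 5.76, 5.62 and 6.19 on the pmel-1 combination arrays, 6.47 and 5.32 on dabrafenib, 6.13 and 6.65 on trametinib and 8.64 and 8.02 on pmel-1 vehicle arrays. Control recipients gave Hoxa4 readings of 6.44 and 5.94 with the combination and 8.29 and 8.37 with vehicle. The groups did not overlap and 3 drug arrays were under 5.79, with a change of -2.31 ± 0.23 (limma, adjusted p = 9.71e-06), 5.0-fold. The mean of its 2 probe sets gave -1.36, the second being under 5.79 on every array. Hoxa5, needed for the lung and trachea, read 9.46 to 9.98 on the 5 combination arrays and 10.20 to 10.60 on the 4 vehicle arrays. It fell by 0.69 ± 0.11 (limma, adjusted p = 3.50e-04), 1.6-fold, and its second probe set differed by -0.66.

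Hoxa7, which acts in the thorax, read 8.35 to 8.97 with the combination and 8.85 to 9.11 with vehicle, so its groups overlapped, and it fell by 0.37 ± 0.13 (limma, adjusted p = 0.0432). Hoxd8, of the trunk, read 9.24 to 9.72 with the combination and 9.65 to 9.82 with vehicle, also overlapping, and fell by 0.24 ± 0.08 (limma, adjusted p = 0.0283). Both calls were marginal. Hoxa7 lost its call without any 1 of control vehicle replicate 1 or 3, control combination replicate 3, pmel-1 vehicle replicate 1 or pmel-1 combination replicate 2 or 3 (changes of -0.41 to -0.26, limma, adjusted p = 0.0572 to 0.1951). Hoxd8 lost it without control vehicle replicate 1 or 3, control combination replicate 2, pmel-1 vehicle replicate 1 or 2 or pmel-1 combination replicate 2 (-0.25 to -0.21, limma, adjusted p = 0.0533 to 0.0939).

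The other central genes did not pass. Hoxb4, known for its part in blood stem cells, differed by 0.03 ± 0.07 and Hoxb5 by 0.01 ± 0.12, and Hoxb6 differed by 0.15 ± 0.11. Hoxc4 read 9.38 to 9.74 with the combination and 9.25 to 9.76 with vehicle, and Hoxc6 read 6.75 to 7.08 with the combination and 6.68 to 7.09 with vehicle. The 95% intervals of these differences were -0.24 to 0.28 for Hoxc4 and -0.17 to 0.21 for Hoxc6. Hoxc8, which acts in the motor neurons of the forelimb, varied most, at 5.36 to 6.14 with the combination and 4.93 to 5.74 with vehicle, and its interval was the widest of the central genes that did not pass (-0.26 to 0.79).

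Of the posterior genes (paralogues 9 to 13), 7 of 14 fell (50%, where 18.8% of all genes fell) and none rose, and the median change was -0.33. Hoxa9, which maintains blood stem cells and is active in leukaemia, read 8.80, 8.63 and 8.59 on the pmel-1 combination arrays, 9.08 and 8.63 on dabrafenib, 9.31 and 9.31 on trametinib and 10.10 and 10.08 on pmel-1 vehicle arrays. Among control recipients Hoxa9 read 9.22 and 8.56 with the combination and 10.25 and 10.39 with vehicle. Drug and vehicle arrays did not overlap, and Hoxa9 fell by 1.42 ± 0.13 (limma, adjusted p = 5.41e-06), 2.7-fold, while its second probe set differed by -0.74. The log2 sum of 5 markers of myeloid progenitors, cells in which Hoxa9 is active, was also lower on every drug array, at 9.24 to 9.69 in pmel-1 combination, 9.41 to 9.55 in dabrafenib, 9.56 to 9.94 in trametinib and 10.08 to 10.23 in pmel-1 vehicle tumours, and 9.54 to 9.75 in control combination against 10.09 to 10.25 in control vehicle tumours. Of these markers only Kit, a receptor that melanocytes also carry, fell (-2.09 ± 0.21, limma, adjusted p = 9.17e-06). Cd34 and Meis1 rose by 0.63 ± 0.23 and 0.45 ± 0.12, Flt3 differed by 0.03 ± 0.07, and Mpo was under 5.79 in all 6 groups. The part of these markers in the fall of Hoxa9 was not tested. Hoxa10, which acts in the uterus and the lumbar spine, read 7.56, 7.75 and 7.91 on the pmel-1 combination arrays, 8.05 and 7.57 on dabrafenib, 8.48 and 8.35 on trametinib and 8.88 and 8.85 on pmel-1 vehicle arrays. The control recipients' readings of Hoxa10 were 8.48 and 7.90 with the combination and 9.30 and 8.99 with vehicle. It fell by 1.04 ± 0.14 (limma, adjusted p = 8.25e-05), 2.1-fold, with no overlap, but its second probe set, which read 5.22 to 6.11, differed by 0.03, and the mean of both gave -0.51.

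Hoxa11 read 6.08, 6.19 and 6.5 on the pmel-1 combination arrays, 6.79 and 6.17 on dabrafenib, 6.93 and 6.80 on trametinib and 9.92 and 10.44 on pmel-1 vehicle arrays. In control recipients both combination arrays read 6.27 and the vehicle arrays 10.56 and 10.68. All drug arrays stayed above 5.79 and far below all vehicle arrays, and the combination lowered Hoxa11 17.6-fold (-4.14 ± 0.15, limma, adjusted p = 6.52e-09). Its change ranked 2 from the lowest among all 18193 genes. Over the 24 alternatives tried the change ran from -4.27 to -3.90.

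Hoxb9, which acts in the rib cage and the mammary gland, read 7.74, 7.39 and 7.81 on the pmel-1 combination arrays, 7.95 and 7.34 on dabrafenib, 7.97 and 8.12 on trametinib and 9.0 and 8.63 on pmel-1 vehicle arrays. For control recipients the Hoxb9 values were 7.78 and 7.48 with the combination and 8.94 and 8.70 with vehicle. The groups did not overlap, and Hoxb9 fell by 1.18 ± 0.14 (limma, adjusted p = 4.24e-05), 2.3-fold. Hoxc10, of the lumbar spinal cord, read 5.77, 6.08 and 5.96 on the pmel-1 combination arrays, 5.05 and 6.04 on dabrafenib, 6.32 and 6.19 on trametinib and 7.11 and 6.30 on pmel-1 vehicle arrays. Control combination arrays of Hoxc10 read 6.02 and 6.16 and control vehicle arrays 8.12 and 7.30. The 5 combination arrays lay below the 4 vehicle arrays, which differed widely among themselves, while the trametinib arrays overlapped them, and the change was -1.20 ± 0.23 (limma, adjusted p = 0.0011), 2.3-fold.

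Hoxc9, which sets the identity of thoracic motor neurons, read 7.09 to 7.40 with the combination and 7.45 to 7.69 with vehicle and fell (-0.35 ± 0.09, limma, adjusted p = 0.0077). Hoxd9, of the limb and lumbar region, read 8.68 to 8.94 with the combination and 8.99 to 9.62 with vehicle and fell (-0.55 ± 0.12, limma, adjusted p = 0.0026). Thus all 4 genes of paralogue 9 fell, by unequal amounts and in separate clusters. The other posterior genes were under 5.79 on every array, apart from Hoxd13, a gene of the digits, which read 5.19 to 6.23 with the combination and 5.60 to 6.04 with vehicle and did not pass (-0.11 ± 0.18).

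Set side by side by cluster, the changes differed in size. In cluster a 8 of 9 genes fell (88.9%, where 18.8% of all genes fell), all but Hoxa13, with a median change of -1.42. Cluster b had 2 falls (22.2%) and 1 rise among 9 genes and a median of 0.01, cluster c 2 falls among 7 (28.6%) and a median of -0.05, and cluster d 3 falls among 8 (37.5%) and a median of -0.19. The shares of clusters b and c lay near that of all genes. Falls of at least 2-fold were found for 6 genes of cluster a, 1 of cluster b (Hoxb9), 1 of cluster c (Hoxc10) and none of cluster d. Within cluster a the falls were not ordered by position. Hoxa5 and Hoxa7, in the middle, fell least of the 8, while Hoxa2, Hoxa3 and Hoxa4 on one side and Hoxa9, Hoxa10 and Hoxa11 on the other each fell by over 1 log2 unit. Paralogues in different clusters did not all move alike. Hoxa2 and Hoxb2 both fell, Hoxa3 fell while Hoxb3 rose and Hoxd3 differed by -0.01 ± 0.09, and Hoxa4 fell while Hoxb4 and Hoxc4 differed by 0.03 ± 0.07 and 0.02 ± 0.12. The shares and medians also count genes near background, where a fall is hard to read. Of the 18 Hox genes over 5.79 on all arrays, 12 fell (66.7%) and 1 rose. All such genes of cluster a and of cluster d (Hoxd8 and Hoxd9) fell. Hoxb4, Hoxb5, Hoxb6, Hoxc4 and Hoxc6, also among them, did not pass. Hoxd1, counted among the falls of cluster d, was under 5.79 on every array, and Hoxd3 read 5.59 to 6.02. These shares are a description of clusters and were not tested against each other.

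**Figure D3:**
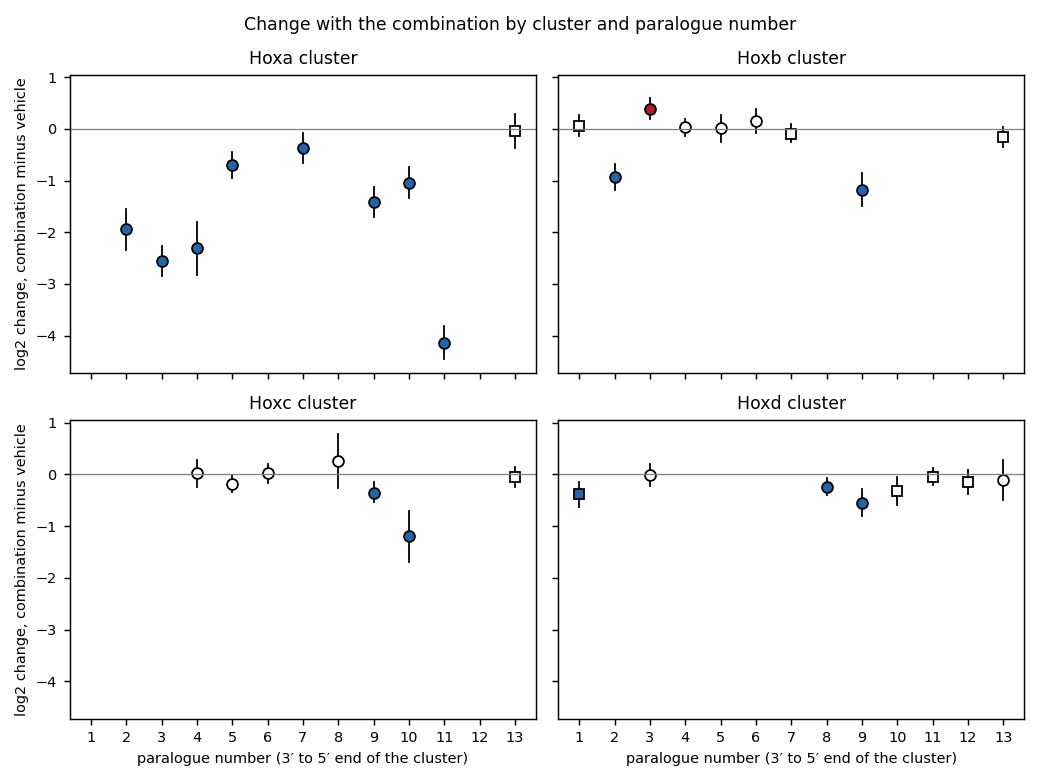
Log2 change, combination minus vehicle over both kinds of recipient (y axis, with 95% interval), by paralogue number (x axis) in each cluster; blue marks falls, red a rise and white genes that did not pass, and squares mark genes under 5.79 on every array. Cluster a dips at Hoxa2 to Hoxa4 and again at Hoxa11, with Hoxa5 and Hoxa7 closer to 0.

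The next comparisons take the kinds of recipient apart, to see what the combination did with and without antigen-specific T cells. In pmel-1 recipients 11 Hox genes fell and 1 rose with the combination, where 15.8% of all genes fell and 18.3% rose (34.2% either way). In control recipients 12 fell and none rose, where 12.4% fell and 13.6% rose (26.1% either way). The change of Hoxa11 was -3.92 ± 0.20 in pmel-1 recipients (15.2-fold lower, limma, adjusted p = 3.10e-07) and -4.35 ± 0.21 in control recipients (20.4-fold lower, limma, adjusted p = 3.08e-07). Hoxa3 changed by -2.43 ± 0.18 in the pmel-1 group and by -2.68 ± 0.20 in the control group, and Hoxa2 by -2.11 ± 0.24 in pmel-1 and -1.78 ± 0.27 in control recipients. Beside these changes, the 3′/5′ ratios were 0.86 to 1.31 with the combination and 0.18 and 0.22 with vehicle in pmel-1 recipients, and 0.19 and 0.42 with the combination and 0.25 and 0.28 with vehicle in control recipients.

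Some genes passed in 1 kind of recipient. In pmel-1 recipients Hoxd8 (-0.46 ± 0.10), Hoxd9 (-0.64 ± 0.16) and Hoxb3 (0.46 ± 0.12) passed, and their values in control recipients were -0.01 ± 0.11, -0.47 ± 0.18 and 0.32 ± 0.14. In control recipients Hoxc10 (-1.62 ± 0.33), Hoxc5 (-0.35 ± 0.11) and Hoxd1 (-0.51 ± 0.17) passed, and their values in pmel-1 recipients were -0.77 ± 0.31, -0.01 ± 0.10 and -0.26 ± 0.15. Hoxc5 read under 5.79 on both control combination arrays and has no fold of its own there. The difference between the recipients was tested as the interaction of transfer and combination, in which 0 Hox genes passed with limma (0.22% of all genes). At an unadjusted p under 0.05, a looser threshold for which no share of all genes was counted, there were 2. The 95% interval of the interaction ran from -0.20 to 1.07 for Hoxa11 and from -0.14 to 1.84 for Hoxc10. For Hoxd8 it ran from -0.78 to -0.11 (limma, adjusted p = 0.2564). A miss of the threshold does not show that the recipients respond alike.

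Several of these calls rest on single arrays. In control recipients Hoxa10 was lost without control combination replicate 3 (-0.66, limma, adjusted p = 0.0591) and with the mean of its probe sets (-0.32, limma, adjusted p = 0.1041), as was Hoxa5 without that array, control vehicle replicate 1 or 3 or trametinib replicate 1 or 2 (-0.57 to -0.27, limma, adjusted p = 0.0501 to 0.3471). Hoxc5 was lost without control vehicle replicate 3 or either control combination array (limma, adjusted p = 0.0951 to 0.2059), and Hoxd1 without any 1 of 6 arrays (control vehicle replicate 1 or 3, control combination replicate 3, pmel-1 vehicle replicate 1 or 2 or pmel-1 combination replicate 3; limma, adjusted p = 0.0503 to 0.2957). In pmel-1 recipients Hoxb3 was lost without pmel-1 vehicle replicate 2 (0.39, limma, adjusted p = 0.1100) and Hoxd9 without pmel-1 vehicle replicate 1 (-0.61, limma, adjusted p = 0.0644). With the 3′/5′ ratio included as covariate 6 Hox genes passed in pmel-1 recipients in place of 12, with Hoxa5, Hoxa10, Hoxb2, Hoxb3, Hoxb9, Hoxd8 and Hoxd9 lost, Hoxc10 added (-1.42, limma, adjusted p = 0.0381) and Hoxa4 at -1.44. Without the 4 arrays of a ratio over 1, a single pmel-1 combination array remained, of ratio 0.86. There Hoxb3, Hoxd8 and Hoxd9 changed by 0.49, -0.38 and -0.64.

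The transfer itself moved no Hox gene past the threshold. Between pmel-1 and control recipients 0 Hox genes passed under the combination (limma, 3.01% of all genes) and 0 under vehicle (0.0165% of all genes). At an unadjusted p under 0.05 there were 3 Hox genes under the combination and 2 under vehicle. No share of all genes was counted at that looser threshold. Under the combination the smallest adjusted p was that of Hoxd8, at 9.33 in pmel-1 and 9.67 in control recipients (-0.34 ± 0.10, limma, adjusted p = 0.0997). Under vehicle it was that of Hoxc10, at a mean of 6.71 in pmel-1 and 7.71 in control recipients (-1.01 ± 0.33, limma, adjusted p = 0.3056). For Hoxa11 the 95% interval of the difference, pmel-1 minus control, was -0.44 to 0.42 under the combination and -0.91 to 0.03 under vehicle.

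Each drug alone was tested in pmel-1 recipients against the same 2 vehicle arrays that the combination is set against. With dabrafenib 12 Hox genes fell and none rose, where 14.3% of all genes fell and 16.2% rose (30.4% either way). With trametinib 8 fell and 1 rose, where 14.1% fell and 14.4% rose (28.5% either way). The change of Hoxa11 was -3.70 ± 0.21 with dabrafenib (13-fold lower, limma, adjusted p = 1.35e-06) and -3.31 ± 0.21 with trametinib (9.9-fold lower, limma, adjusted p = 3.56e-06). That of Hoxa3 was -2.28 ± 0.20 with dabrafenib and -2.01 ± 0.20 with trametinib, and that of Hoxa4 -2.43 ± 0.34 with dabrafenib and -1.94 ± 0.34 with trametinib.

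Hoxa2 changed by -2.06 ± 0.27 with dabrafenib and -1.40 ± 0.27 with trametinib, and Hoxa9 by -1.24 ± 0.20 with dabrafenib and -0.78 ± 0.20 with trametinib. In cluster b the changes were -1.11 ± 0.17 with dabrafenib and -0.94 ± 0.17 with trametinib for Hoxb2, and -1.17 ± 0.21 with dabrafenib and -0.77 ± 0.21 with trametinib for Hoxb9. Dabrafenib also lowered Hoxa5, Hoxa10, Hoxc10, Hoxd8 and Hoxd9, with changes of -1.16 to -0.36. Their values with trametinib were -0.26 ± 0.17 for Hoxa5, -0.45 ± 0.21 for Hoxa10, -0.45 ± 0.33 for Hoxc10, -0.20 ± 0.11 for Hoxd8 and -0.30 ± 0.18 for Hoxd9, none of which passed. With trametinib Hoxc9 fell (-0.39 ± 0.13) and Hoxb3 rose (0.47 ± 0.14), and with dabrafenib they differed by -0.31 ± 0.13 and 0.34 ± 0.14 and did not pass.

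**Figure D4:**
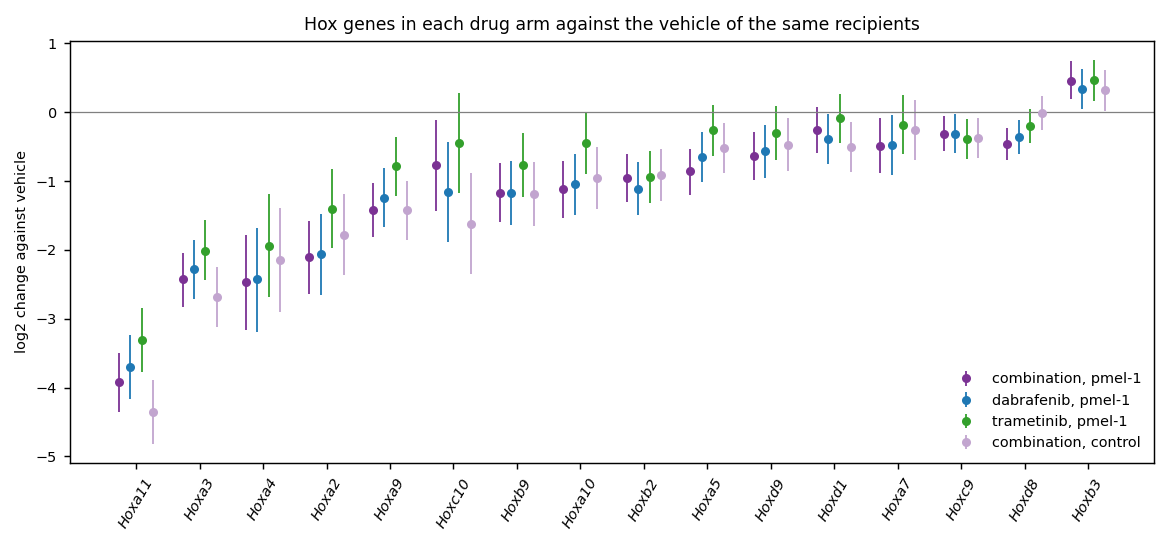
Log2 change against vehicle of the same recipients (y axis, with 95% interval) for the 16 Hox genes called over both kinds of recipient (x axis), by drug arm: combination, dabrafenib and trametinib in pmel-1 recipients and combination in control recipients. Hoxa11 is lowest in all 4 arms (-4.35 to -3.31), and trametinib points lie nearer 0 than dabrafenib points for most Hoxa genes.

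The count with trametinib varied with the arrays included. Without trametinib replicate 1, or without the 4 arrays of a 3′/5′ ratio over 1, a single trametinib array remained. Hoxa9 and Hoxb9 then changed by -0.79 and -0.69 either way. With that ratio included as covariate 5 Hox genes passed in place of 9. Without pmel-1 vehicle replicate 1, 6 passed, among them Hoxb6, which did not pass with all arrays included. Without trametinib replicate 1 or pmel-1 vehicle replicate 1, Hoxa9 (limma, adjusted p = 0.0517 and 0.0567) and Hoxb9 (0.1067 and 0.1561) no longer passed, nor did Hoxb3 (up to 0.1990, also without pmel-1 vehicle replicate 2). Hoxc9 was lost without either array of the trametinib, pmel-1 vehicle or control combination groups (-0.44 to -0.34, limma, adjusted p = 0.0573 to 0.2069). With dabrafenib, 7 genes passed with that ratio included as covariate, Hoxc10 at -1.80, in place of 12. Without the 4 arrays a single dabrafenib array remained, and Hoxa5, Hoxa10, Hoxd8 and Hoxd9 changed by -0.50, -0.82, -0.25 and -0.59. Hoxa13, under 5.79 on every array, changed by 0.44 there. Hoxc10 was lost without dabrafenib replicate 1 (-0.67) or pmel-1 vehicle replicate 1 (-0.76, limma, adjusted p = 0.1676 and 0.1987), and Hoxa5 without dabrafenib replicate 2 or pmel-1 vehicle replicate 1 (limma, adjusted p = 0.1070 and 0.1066). Hoxd9 was lost without either dabrafenib or either pmel-1 vehicle array (limma, adjusted p = 0.0877 to 0.1264), and Hoxd8 without dabrafenib replicate 2 or either pmel-1 vehicle array (0.0817 to 0.2486).

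Set against each other, the drugs gave 3 pairs of arms and 0 Hox genes passed in any of them with limma. In dabrafenib minus trametinib 0.572% of all genes passed at the adjusted threshold. At an unadjusted p under 0.05, a looser threshold for which no share of all genes was counted, there were 5 Hox genes. Hoxa10 had the smallest adjusted p, at a mean of 7.81 with dabrafenib and 8.41 with trametinib (-0.60, 95% interval -1.05 to -0.15, limma, adjusted p = 0.2901). For Hoxa11 the difference was -0.39 (-0.86 to 0.08), and for Hoxa2 it was -0.66 (-1.24 to -0.08). In the combination minus trametinib 0.759% of all genes passed at the adjusted threshold, and 8 Hox genes had an unadjusted p under 0.05, again the looser threshold. Of these Hoxa5 differed by -0.60 (-0.93 to -0.27, limma, adjusted p = 0.1064) and Hoxa11 by -0.61 (-1.04 to -0.18, limma, adjusted p = 0.2142). The combination minus dabrafenib had 1 Hox gene at an unadjusted p under 0.05 (Hoxd12, under 5.79 on every array), and 0 of all 18193 genes passed. There Hoxa11 differed by -0.22 (-0.65 to 0.21) and Hoxa3 by -0.16 (-0.55 to 0.24). These intervals do not show that the arms act alike.

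Transcripts that run antisense to Hox genes were read by probe sets of their own. Hoxa11os, which lies over Hoxa11 on the other strand, read 5.04, 5.64 and 5.29 on the pmel-1 combination arrays, 5.93 and 5.87 on dabrafenib, 5.81 and 6.22 on trametinib and 7.37 and 8.22 on pmel-1 vehicle arrays. In control recipients Hoxa11os read 5.71 and 5.24 with the combination and 9.77 and 8.55 with vehicle. No drug array reached a vehicle array, and the combination arrays were all under 5.79, so the fall was at least 6.4-fold over both kinds of recipient (limma, adjusted p = 1.87e-06), taking those arrays at that level. A second Hoxa11os probe set read under 5.79 on every array. Hoxb5os read 6.17 to 6.48 on the 9 drug arrays and 5.91 to 6.16 on the 4 vehicle arrays, and rose by 0.30 ± 0.08 (limma, adjusted p = 0.0074) while Hoxb5 did not pass. Hoxd3os1 read 7.5 to 8.21 with a drug and 7.60 to 8.0 with vehicle and did not pass (-0.10 ± 0.13). The labels used here do not say whether the labelling kept the strands apart.

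The partners and regulators of Hox genes were read from lists, beside a background of 18.8% falling and 21.5% rising with the combination over both kinds of recipient. Of 8 TALE cofactors measured 3 rose and 3 fell, with a median change of 0.12. Meis3 rose by 0.58 ± 0.12 and Meis1, which works with Hoxa9 in blood cells, by 0.45 ± 0.12, while Pbx3 (-0.50 ± 0.12) and Pknox1 (-0.32 ± 0.08) fell. Of 28 Polycomb genes 6 rose and 10 fell (median -0.09). Eed, a core subunit of the complex that methylates histone H3, fell by 0.77 ± 0.07, and Ezh1 and Phf1, an enzyme and an accessory subunit of that complex, rose by 1.11 ± 0.11 and 1.08 ± 0.13. Phc3, a subunit of the other Polycomb complex, rose by 1.16 ± 0.07.

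Of 15 Trithorax and related genes 4 rose and 5 fell (median 0.03). Those with the smallest p were all falls, of Dpy30 (-0.86 ± 0.09), Wdr5 (-0.44 ± 0.06) and Ash2l (-0.43 ± 0.06), shared subunits of the histone methylases that keep Hox genes active, and of Psip1 (-0.56 ± 0.07), which tethers such a complex. Of 18 upstream regulators, mostly of retinoic acid signalling, which switches on Hox genes in the embryo, 5 rose and 6 fell (median -0.07). Rarb, a retinoic acid receptor that is itself a target of the pathway, read 8.26 to 9.71 on the 9 drug arrays and 6.56 to 7.36 on the 4 vehicle arrays and rose by 2.24 ± 0.18 (limma, adjusted p = 2.05e-06). The retinoic acid degrading enzymes Cyp26a1 (-0.85 ± 0.11) and Cyp26b1 (-0.76 ± 0.11) fell, as did the receptor Rarg (-0.62 ± 0.12). Cyp26a1 read 5.34 to 5.87 on the drug arrays and so lay at or near 5.79 there.

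Of 21 genes that flank the Hox clusters 3 rose and 8 fell (median -0.13). Skap2, on the Hoxa2 side of cluster a, fell by 0.48 ± 0.08. Beside cluster d, Lnpk fell by 0.71 ± 0.11 and Atf2 rose by 0.50 ± 0.08. Calcoco1, beside cluster c, rose by 1.53 ± 0.19. Of 27 genes of other homeobox families 4 rose and 2 fell (median -0.02). Six4 fell by 1.29 ± 0.14, at 5.56 to 6.13 with a drug and 6.84 to 7.40 with vehicle, and Irx5 fell by 0.69 ± 0.12. Shox2 rose by 0.63 ± 0.17, and Emx2 rose by 0.35 ± 0.07 while under 5.79 on every array.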

How the data were processed

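Total RNA of SM1 tumours was hybridised to 13 Affymetrix Mouse 430 V2 arrays, per the labels' protocols. The deposited values are log2 intensities, which the authors made with RMA in affy, per the submitters' processing notes, which name no versions. RMA corrects background, makes the arrays' distributions equal and sums probes per probe set, so a shift shared by all genes is removed. Array maxima were 14.94 to 15.06.

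Of 45101 probe sets, 34945 carried 1 gene symbol, 932 several and 9160 none, and 64 were controls. Each of 18193 genes took its probe set of highest mean, and probe sets with several symbols named no gene. Group means of all 6 groups were fitted on the log2 values with limma 3.58.1 in R 4.3.3 (7 residual degrees of freedom, 11 comparisons), without a filter, and tested on simulated data. Adjusted p-values are Benjamini-Hochberg over all genes within a comparison, at a threshold of 0.05. The interaction is the combination's change in pmel-1 minus that in control recipients. For a group with all arrays under 5.79, the bound took those arrays at that level. Promoters were read with Python 3.11.15 and pandas 2.3.3.

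All Hox genes with a probe set of their own were members, and values are given for up to 20 called genes of largest change that passed 5.79 on at least 2 arrays, for genes called in another comparison and for the gene of highest mean in each cluster, while lists give up to 4 genes of smallest p. Hoxd1, Hoxd13 and Hoxc8 were added after their values were seen. The members and lists were chosen with earlier results of these data known. Alternatives were another normalization, filter, probe-set rule, variance model, array weights, a replicate block, a 3′/5′ covariate and each array left out.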

Additional observations from a re-analysis of the deposited data

How the results depend on the processing

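Over 24 alternatives, 13 of which left out 1 array, 0 of the called changes of single Hox genes turned direction (23 alternatives for Hoxd1, which the filter removed). Directions of genes that were not called were not followed. Hoxc5, not called over both kinds of recipient, passed with the mean of its probe sets (-0.45, limma, adjusted p = 6.02e-05). Of the 16 Hox genes called for the combination in both recipients together, 12 kept their call in all alternatives (Hoxa2, Hoxa3, Hoxa4, Hoxa5, Hoxa9, Hoxa10, Hoxa11, Hoxb2, Hoxb9, Hoxc9, Hoxc10 and Hoxd9), and Hoxa7, Hoxb3, Hoxd1 and Hoxd8 lost it in at least 1. Over all genes, calls for the combination in both recipients together came to 5574 with the 3′/5′ ratio included as covariate, against 7325 as reported. The Hox calls with that covariate came to 6 for the combination in pmel-1 recipients (12 as reported), 7 for dabrafenib (12) and 5 for trametinib (9). The cause was not tested. Leaving out the 4 arrays of a ratio over 1 was an alternative chosen after seeing the data. It left a single array each of pmel-1 combination, dabrafenib and trametinib. Their ratios, 0.86, 0.60 and 0.68, were still above the 0.18 and 0.22 of the pmel-1 vehicle arrays. With single arrays left out the calls ran from 14 to 17 for the combination in both together, 8 to 13 in control and 12 to 14 in pmel-1 recipients, 9 to 13 for dabrafenib and 5 to 9 for trametinib, and stayed at 0 in the other 6 comparisons. With the replicate block the calls were 13 over both kinds of recipient, 9 in control and 12 in pmel-1 recipients, 10 for dabrafenib and 8 for trametinib. Deviations of same-numbered arrays from their group means correlated at -0.477 to 0.401 over 23 pairs, with 3 over 0.1 and 12 under -0.1. In a group of 2 arrays the deviations mirror each other, so these values cannot decide whether the replicate numbers pair the samples. Groups of 2 or 3 arrays limit what can be called, and genes under 5.79 carry little signal over background.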

Other observations

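The 3 other probe sets of Hox genes carried the symbols of 2 Hox genes each and so entered no comparison of single genes. The probe set of Hoxb8 and Hoxb7 read 8.29 to 9.08 on the 9 drug arrays and 8.22 to 8.44 on the 4 vehicle arrays. In pmel-1 recipients it differed by 0.34 for the combination, 0.43 for dabrafenib and 0.65 for trametinib. For the combination it differed by -0.09 in control recipients and by 0.12 over both. The probe sets of Hoxd4 and Hoxd3 read 7.15 to 7.66 and 7.04 to 7.53 on the drug arrays, against 7.01 to 7.24 and 6.88 to 7.21 on the vehicle arrays. For the combination they differed by 0.16 and 0.18 over both kinds of recipient, 0.30 and 0.33 in pmel-1 and 0.01 and 0.04 in control recipients. A Hoxc5 probe set that lay under 5.79 on every array read 4.18 to 4.88 on the drug arrays and 5.05 to 5.73 on the vehicle arrays, while the probe set used for Hoxc5 read 5.74 to 5.95 on the drug arrays and 5.78 to 6.18 on the vehicle arrays.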
